A study of Sus scrofa with 96 samples.

Results

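Livers of boars of high genetic merit of boar taint (BT) were compared with livers of boars of medium merit. The comparison held the 31 liver libraries made with a stranded mRNA kit and carrying the submitters' label batch 1, 15 from high BT and 16 from medium BT, out of 96 libraries of liver and testis from 48 boars. All boars were commercial Danish Landrace males, intact and slaughtered at a fixed live weight, and no genotype was altered. Merit was the sum of the breeding values of the sire for skatole in fat and for human nose score, so that it is a property of the sire and not a taint measurement of the boar. Boars of high BT were those with the most extreme values, boars of medium BT those nearest to the mean, and boars of 1 sire were at most half-siblings. The sires were not in the labels, so that the p-values treat half-siblings as unrelated. One liver of high BT was made with a total RNA kit and was kept out of the comparison.

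Boar taint is an odour of heated pork from entire males, caused mainly by skatole, a bacterial product of tryptophan in the gut, and by androstenone, a steroid of the testis. Both reach the liver with the blood. Hepatocytes oxidise or reduce them in phase I and conjugate them in phase II, and the products leave with urine or bile. The liver also holds Kupffer cells, endothelium and lymphocytes, which meet gut-derived material from the portal vein and carry the receptors of innate immunity.

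Between 6834642 and 11627783 reads per library fell on genes in high BT (median 9048562), and between 3728775 and 12156143 in medium BT (median 10123824). Albumin (ALB), transferrin (TF) and transthyretin (TTR), which define hepatocytes, were abundant in every library. ALB alone had a median of 136713 CPM (read counts scaled to a common library size) in high BT and 157617 in medium BT. The other hepatocyte markers measured had reads in every library, and APOB was the lowest, with medians of 52.2 and 42.8 CPM. After TMM scaling, 12169 genes with a mean count above 5 were tested, of which 8246 had a symbol. With limma, 4 genes passed an adjusted p of 0.05 (0.0329% of the genes tested), 2 higher and 2 lower in high BT. They were CYBRD1 and ITGA8, which rose, and MEST and an unnamed gene, ENSSSCG00000022796, which fell. An unadjusted p under 0.05 was found for 988 genes with higher values in high BT (8.12%) and for 721 with lower values (5.92%), and the median log2 fold change of all genes was 0.00. For no gene did the CPM ranges of the groups fail to overlap. The next adjusted p was 0.0536, shared by 6 genes with higher values (LONRF3, ANGPTL6, CNTFR, STEAP4, MORC3 and DRAM1) and 1 with lower values (ACSM4). The same counts gave 2 calls with edgeR (MEST and PRM1), at 1547 genes with an unadjusted p under 0.05, and 24 calls with DESeq2.

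**Figure D1:**
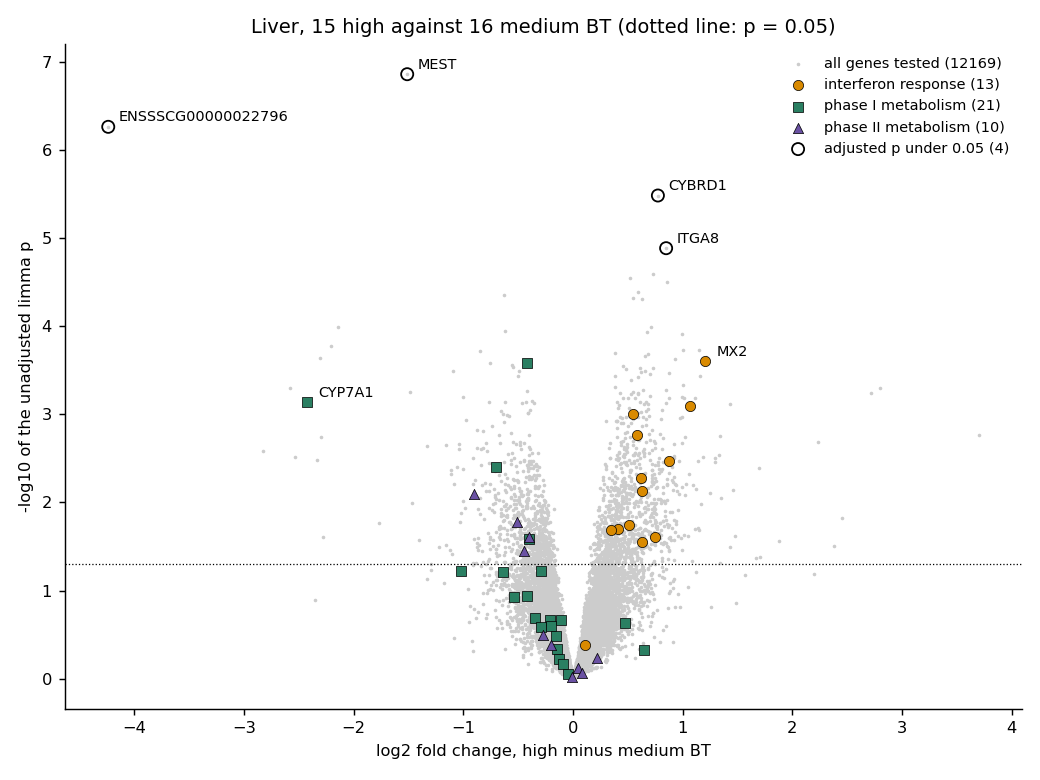
Unadjusted limma p on a -log10 scale (vertical) against the log2 fold change of high minus medium BT (horizontal) for the 12169 genes tested in liver, with the 4 genes called circled and 3 gene lists coloured. The 13 interferon genes all lie to the right of 0, and 19 of the 21 phase I genes lie to the left.

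CYBRD1 encodes a ferric reductase of the duodenal and other membranes that readies iron for uptake. Its level ran from 17.5 through a median of 29.9 to 45.6 CPM in high BT and from 13.1 through 17.1 to 32.7 CPM in medium BT. All 15 livers of high BT lay above the median of medium BT, and 9 of 16 livers of medium BT lay below every liver of high BT, although the ranges overlapped. The log2 fold change was 0.77 ± 0.14 (SE), with a limma adjusted p of 0.0133. Without medium replicate 8 the adjusted p was 0.0615, and with edgeR it was 0.0973. The limma adjusted p was 0.0880 without sample quality weights and 0.0639 in the fit of 46 livers in 3 groups.

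STEAP4, a metalloreductase that reduces iron and copper, had the same pattern at an adjusted limma p of 0.0536. It ran from 17.7 through 24.4 to 37.7 CPM in high BT and from 10.4 through 17.7 to 28.9 CPM in medium BT, a log2 fold change of 0.59 ± 0.13. All 15 livers of high BT again lay above the median of medium BT. In a list of iron genes drawn up after the values had been seen, these were the only 2 of 17 tested members with higher values at an unadjusted p under 0.05, beside the 8.12% of all genes. The values of CYBRD1 and STEAP4 were known before the list was drawn up, so that their own places in the count add nothing. Another 5 members had lower values at that level, beside 5.92% of all genes, and the median log2 fold change of the list was -0.14. They were the iron sensor ACO1 (-0.25), the haem carrier hemopexin HPX (-0.31), the second transferrin receptor TFR2 (-0.36), the ferroxidase ceruloplasmin CP (-0.31) and TMPRSS6, a protease that restrains hepcidin (-0.33). None of the 5 was called. Without scaling factors none had an unadjusted p under 0.05, and the count was 2 or 3 without high replicates 1, 2, 4, 5, 11, 12, 14 or 15 or medium replicates 6, 7, 8, 10, 11, 12, 13, 15 or 16. It was 3 without quality weights, and 2 with at least 10 counts in every library or with the total RNA liver of high BT. With the share of reads assigned as a covariate it was also 2.

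ITGA8, the alpha 8 integrin chain of stellate and other contractile cells, ran from 1.14 through 1.85 to 2.62 CPM in high BT. In medium BT it ran from 0.396 through 1.18 to 1.81 CPM. The 8 highest livers were all of high BT and the 8 lowest all of medium BT. The log2 fold change was 0.85 ± 0.17, with a limma adjusted p of 0.0394. This call was lost in 13 of 31 fits that left out 1 liver (high replicates 1, 3, 7, 11, 13 and 15, medium replicates 6, 7, 8, 9, 10, 12 and 13), with adjusted p up to 0.0997, while the log2 fold change stayed between 0.77 and 0.91. The limma adjusted p was 0.0628 without sample quality weights and 0.0683 in the fit of 46 livers in 3 groups. With edgeR the adjusted p was 0.0665. Of 24 tested members of a list of integrins and their ligands, also drawn up after the values had been seen, 5 had higher values at an unadjusted p under 0.05 (20.8%, beside 8.12% of all genes) and 1 had a lower value (4.17%, beside 5.92%). Beside ITGA8 these were the growth factor TGFB1 (0.40), the leukocyte integrin ITGA4 (0.44), the elastic fibre protein FBLN5 (0.37) and LTBP1 (0.28), which holds latent TGF-beta in the matrix. ITGA8 was known to be called before the list was drawn up, so that its own place in the count adds nothing. The count of 5 was 2 or 3 with edgeR, with DESeq2, without quality weights or with the share of reads assigned as a covariate. The tested markers of stellate cells and fibroblasts, COL1A2, COL3A1 and DCN, had log2 fold changes between -0.33 and 0.07 and none an unadjusted p under 0.05.

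Another 3 genes with higher values in high BT missed the threshold at an adjusted p of 0.0536. LONRF3, a RING finger protein, ran from 9.16 through 18.0 to 23.8 CPM in high BT and from 6.24 through 9.68 to 17.9 CPM in medium BT. Its log2 fold change was 0.73 ± 0.15, and 8 livers of high BT lay above every liver of medium BT. ANGPTL6, a secreted angiopoietin-like factor of the liver, ran from 20.6 through 31.7 to 47.8 CPM against 17.0, 25.5 and 33.8 CPM, a log2 fold change of 0.52 ± 0.11. CNTFR, the receptor of ciliary neurotrophic factor, ran from 1.28 through 2.39 to 4.66 CPM against 0.792, 1.43 and 2.40 CPM, a log2 fold change of 0.86 ± 0.18. For both, 7 livers of high BT exceeded every liver of medium BT.

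MEST, an imprinted gene of the alpha/beta hydrolase family that is expressed from the paternal copy in mammals, gave the lowest p of the comparison. It ran from 0.780 through 1.45 to 5.57 CPM in high BT and from 2.48 through 4.21 to 8.52 CPM in medium BT. In 12 of 15 livers of high BT the level was below that of every liver of medium BT, and 14 of 15 were below the median of medium BT. The log2 fold change was -1.51 ± 0.23, and the adjusted p was 0.00167 with limma and 0.0283 with edgeR. The call was kept in all 31 fits that left out 1 liver, with log2 fold changes between -1.65 and -1.40. On the scale of all 46 stranded mRNA livers, the median level was 1.47 CPM in high BT, 4.37 CPM in medium BT and 2.34 CPM in low BT. The values of low BT are a description, since the groups share the scaling and the livers of the main comparison.

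No other imprinted gene was called. A list of 14 tested genes known as imprinted in mammals was drawn up after the value of MEST had been seen. MEST and SLC22A18 (-0.57) were the only 2 with an unadjusted p under 0.05, both lower (14.3%, beside 5.92% of all genes). No member had a higher value at that level, beside 8.12% of all genes. MEST prompted the list, so that its own place in the count adds nothing. The median log2 fold change of the list was 0.14, and 8 of the 14 had higher values (11 without scaling factors). COPG2, the neighbour of MEST in mammalian genomes, had a similar median in both groups on the scale of 46 livers (27.0 CPM in high and 28.8 CPM in medium BT).

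The gene ENSSSCG00000022796, which had no symbol in the tables used here, split the livers of high BT into 2 sets. In 8 livers of high BT out of 15 it was at or below 0.109 CPM, with no read in 5 of them. In the other 7 it ran from 3.26 through 5.81 to 13.0 CPM. The 16 livers of medium BT ran from 3.79 through 8.65 to 27.8 CPM, and none was near 0. The fitted log2 fold change was -4.24 ± 0.69, with a limma adjusted p of 0.00330. This value depends on how the model treats counts of 0, and edgeR gave -1.92 with an adjusted p of 0.236. In low BT 1 of 15 livers was at 0 and the median was 9.57 CPM on the scale of 46 livers, against 0.111 in high BT and 8.94 in medium BT.

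The testes of 20 of the same boars (14 of high BT, 6 of medium BT, all batch 2 and stranded mRNA) held the split as well. Some of these testes of high BT, and none of medium BT, were libraries of a second run. Of 7 boars of high BT with a liver level below 0.5 CPM, 6 were at or below 0.127 CPM in testis, and 1 had 3.84 CPM. Each of the other 7 boars of high BT had between 3.09 and 5.60 CPM in testis, and the 6 boars of medium BT had between 3.70 and 10.5 CPM. The log2 fold change in testis was -3.02 ± 0.89, with an unadjusted limma p of 0.00245 and an adjusted p of 0.901. The difference between the effects in liver and testis had an exact permutation p of 0.404, over all 38760 divisions of the 20 boars.

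**Figure D2:**
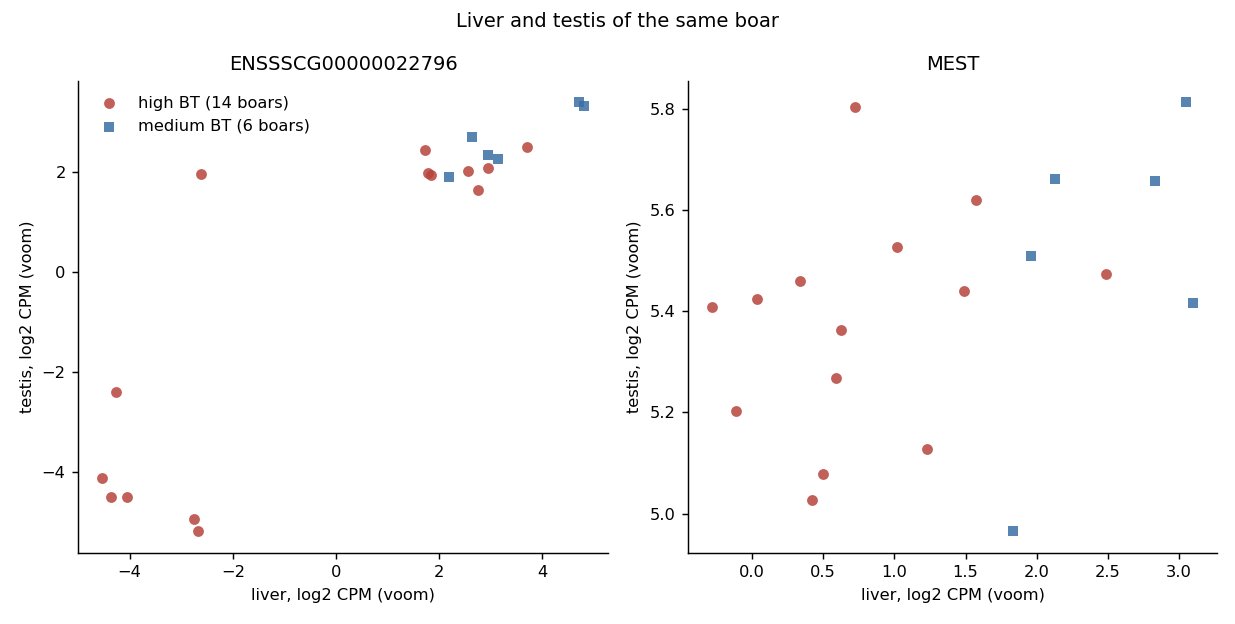
Level in testis (vertical) against level in liver (horizontal) in log2 CPM for the 20 boars with both libraries, 14 of high BT (circles) and 6 of medium BT (squares). For ENSSSCG00000022796, 6 boars of high BT are low in both tissues and 1 is low in liver only, whereas for MEST the testis levels of both groups share 1 range.

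None of the 4 genes called in liver was called in testis, where 1 of 15164 genes passed the threshold (0.00659%) and 633 had an unadjusted p under 0.05. MEST had a median of 42.7 CPM in testis of high BT and 48.0 CPM in medium BT, a log2 fold change of -0.12 ± 0.11. CYBRD1 had 58.8 and 53.9 CPM (0.09 ± 0.14), and ITGA8 had 0.687 and 0.532 CPM (0.41 ± 0.29). Over the 20 boars, the effect of merit differed between liver and testis for MEST by -1.59 on the log2 scale (exact permutation p = 0.000181, 0.00163 adjusted over 9 genes). It also differed for LONRF3 by 0.88 (adjusted exact permutation p = 0.0241) and CNTFR by 1.10 (adjusted exact permutation p = 0.0327). For CYBRD1 (0.51) and ITGA8 (0.71) the adjusted exact permutation p was 0.0932 and 0.0735. All 9 genes were chosen for their difference in liver, in livers that include those of these boars. The liver side of each test is therefore not independent of the choice, which favours a small p.

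**Figure D3:**
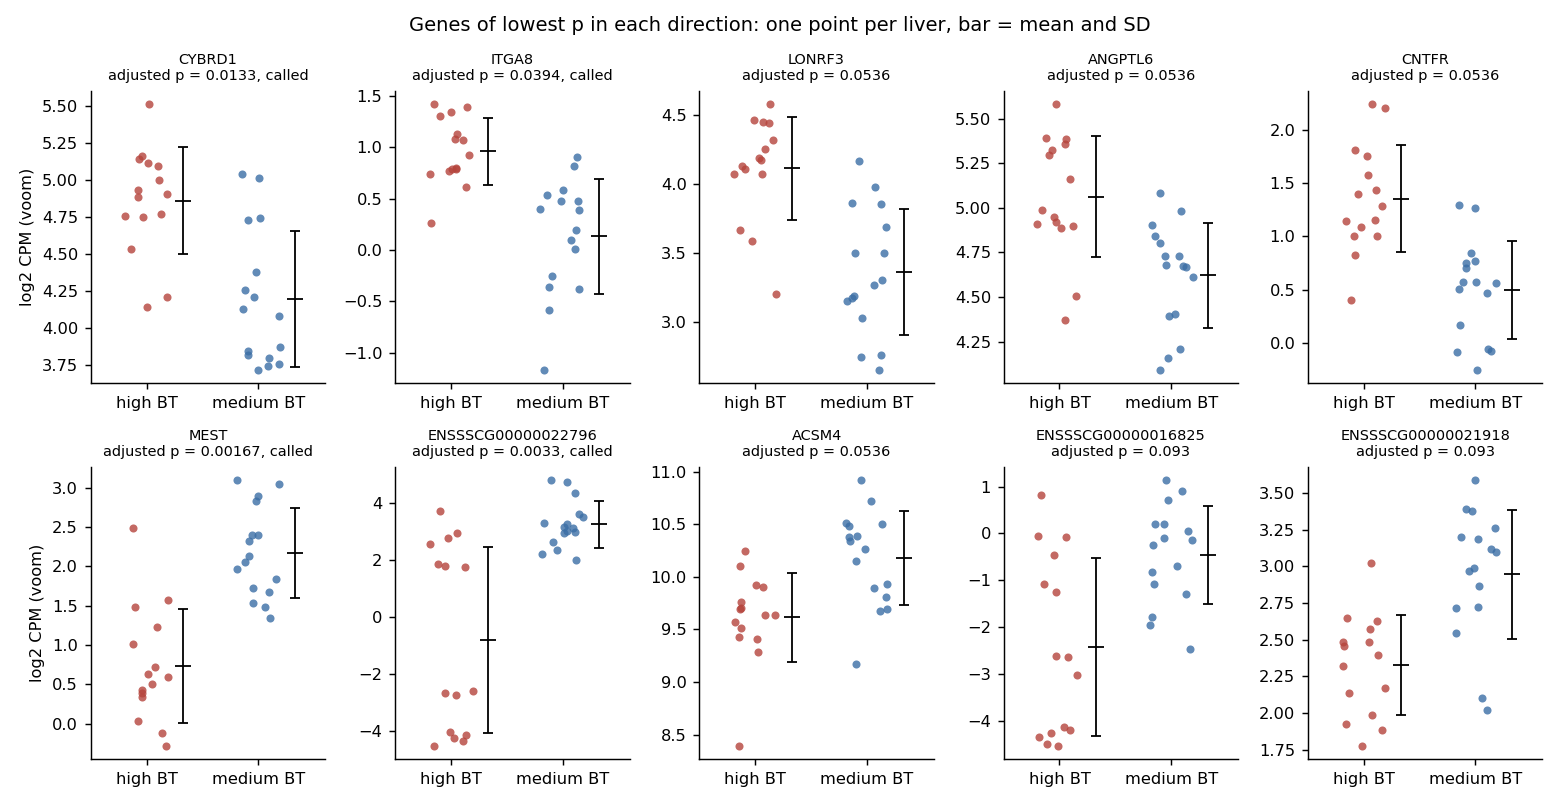
Level of the 5 genes of lowest p in each direction in log2 CPM (vertical), with 1 point for each of the 15 livers of high BT and the 16 of medium BT, with a bar for the mean and SD. Each panel has its own scale. MEST shows 12 livers of high BT below all livers of medium BT, and ENSSSCG00000022796 shows 2 separate sets of livers of high BT.

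ACSM4, a mitochondrial medium-chain acyl-CoA synthetase, ran from 337 through 798 to 1213 CPM in high BT and from 578 through 1266 to 1942 CPM in medium BT. All 15 livers of high BT lay below the median of medium BT, and 9 livers of medium BT exceeded every liver of high BT. Its log2 fold change was -0.63 ± 0.14, with a limma adjusted p of 0.0536. Enzymes of this family join medium-chain and aromatic acids to coenzyme A, the step before glycine conjugation. In a list of 11 acyl-CoA synthetases drawn up after the values had been seen, ACSM5 (-0.85 ± 0.20), ACSM3 (-0.54 ± 0.20), ACSS3 (-0.45) and ACSF3 (-0.39) also had lower values at an unadjusted p under 0.05. ACSS1 (0.51) and ACSL4 (0.44), which activate acetate and long-chain polyunsaturated acids, had higher values at that level. All 15 livers of high BT lay below the median of medium BT for ACSM5 too, at a median of 50.7 CPM against 84.4 CPM. The 5 lower members with ACSM4 were 45.5% of the list, beside 5.92% of all genes, and the 2 higher were 18.2%, beside 8.12%. The value of ACSM4 was known before the list was drawn up, so that its own place in the count adds nothing. The count of 5 fell to 3 without scaling factors, without quality weights or with at least 10 counts in every library. It was also 3 with the share of reads assigned as a covariate, and without high replicates 1, 11 or 15 or medium replicates 6, 9, 10 or 12. The other 2 genes of lowest p among those with lower values had no symbol. ENSSSCG00000021918 had a median of 5.22 CPM against 8.18 CPM, with a limma adjusted p of 0.0930. ENSSSCG00000016825 had a median of 0.107 CPM against 0.817 CPM and the same limma adjusted p. It had no read in 6 livers of high BT and reads in every liver of medium BT. Its mean count was 6, and it passed the minimum mean count only through medium BT. No fold change is therefore given for ENSSSCG00000016825, and its adjusted p is not read as a difference.

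Genes of phase I and phase II metabolism were compared as lists, which also hold genes that act on other substrates than skatole and androstenone. Of 21 phase I genes tested, 19 had lower and 2 had higher values in high BT, the median log2 fold change was -0.29, and none was called. The 4 with an unadjusted p under 0.05 were all lower (19%, beside 5.92% of all genes). They include ACOX2 and CYP7A1, which are also members of the list of bile acid genes below, so that the counts of these lists are not independent. The count of 4 was 7 or 8 without high replicates 2, 7, 8 or 9 or medium replicate 8. It was 7 without quality weights and 8 with edgeR or DESeq2.

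ACOX2, the peroxisomal oxidase that shortens the side chain of bile acid precursors, ran from 87.5 through 194 to 245 CPM in high BT and from 167 through 239 to 362 CPM in medium BT. Its log2 fold change was -0.42 ± 0.10, with a limma adjusted p of 0.101, and 1 of 15 livers of high BT lay above the median of medium BT. ALDH2, which oxidises acetaldehyde, also had a lower value at an unadjusted p under 0.05 (-0.40 ± 0.17, limma adjusted p of 0.291).

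The enzymes best known for skatole oxidation had wide ranges in both groups. CYP2E1 ran from 982 through 3217 to 5810 CPM in high BT and from 92.4 through 3121 to 5543 CPM in medium BT, a log2 fold change of 0.48 ± 0.40. CYP2A19, the pig counterpart of human CYP2A6, ran from 4.05 through 123 to 528 CPM against 1.03, 133 and 940 CPM, a log2 fold change of 0.65 ± 0.90. Their unadjusted limma p were 0.235 and 0.472. The spread within each group was wider than the difference for both, and the lowest livers of both groups stood far below their medians. CYB5A, the cytochrome b5 that assists steroid and drug oxidation, had medians of 999 CPM and 1164 CPM (-0.16 ± 0.16), and the hydroxysteroid dehydrogenases HSD17B4, HSD17B7 and HSD17B8 had log2 fold changes of -0.34, -0.09 and -0.29 with no unadjusted p under 0.05.

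Of 10 phase II genes tested, 4 had lower values at an unadjusted p under 0.05 (beside 5.92% of all genes) and none higher (beside 8.12%), the median log2 fold change was -0.24, and none was called. The count was 2 without scaling factors or without the livers of quality weight under 0.6. GSTA4, a glutathione transferase of lipid aldehydes, had a median of 16.2 CPM in high BT and 20.9 CPM in medium BT (-0.91 ± 0.32). GSR, which regenerates reduced glutathione, had 7.30 and 10.4 CPM (-0.51 ± 0.20). GSTZ1, of tyrosine breakdown, had 246 and 329 CPM (-0.40 ± 0.17). The adjusted limma p of these 3 genes lay between 0.202 and 0.286. SULT1A3, the 1 phenol sulphotransferase of the list that was tested, had 74.7 and 97.5 CPM (0.08 ± 0.49).

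CYP7A1, the rate-limiting enzyme of bile acid synthesis, had the steepest fitted difference of the metabolic lists. It ran from 0.726 through 5.45 to 37.9 CPM in high BT and from 2.78 through 26.0 to 681 CPM in medium BT. Only 1 of 15 livers of high BT lay above the median of medium BT. The log2 fold change was -2.42 ± 0.65, with a limma adjusted p of 0.112, and the gene was among those called by DESeq2. In a list of 20 tested genes of bile acid synthesis and transport, drawn up after the values had been seen, 5 had lower values at an unadjusted p under 0.05 (25.0%, beside 5.92% of all genes), 17 of 20 had lower values, and the median log2 fold change was -0.31. Beside CYP7A1 and ACOX2 these were the canalicular bile salt pump ABCB11 (-0.66 ± 0.25), the xenobiotic receptor NR1I3 (-0.60 ± 0.23) and FGFR4 (-0.33 ± 0.15), the receptor through which the gut hormone FGF19 restrains CYP7A1. The values of CYP7A1 and ACOX2 were known before the list was drawn up, so that their own places in the count add nothing. The bile acid receptor NR1H4 and its target NR0B2 had log2 fold changes of -0.19 and 0.34, neither under an unadjusted p of 0.05. The count of 5 was 8 with edgeR, without the second-run libraries, or without high replicate 10 or medium replicate 2, and 10 without the livers of quality weight under 0.6.

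**Figure D4:**
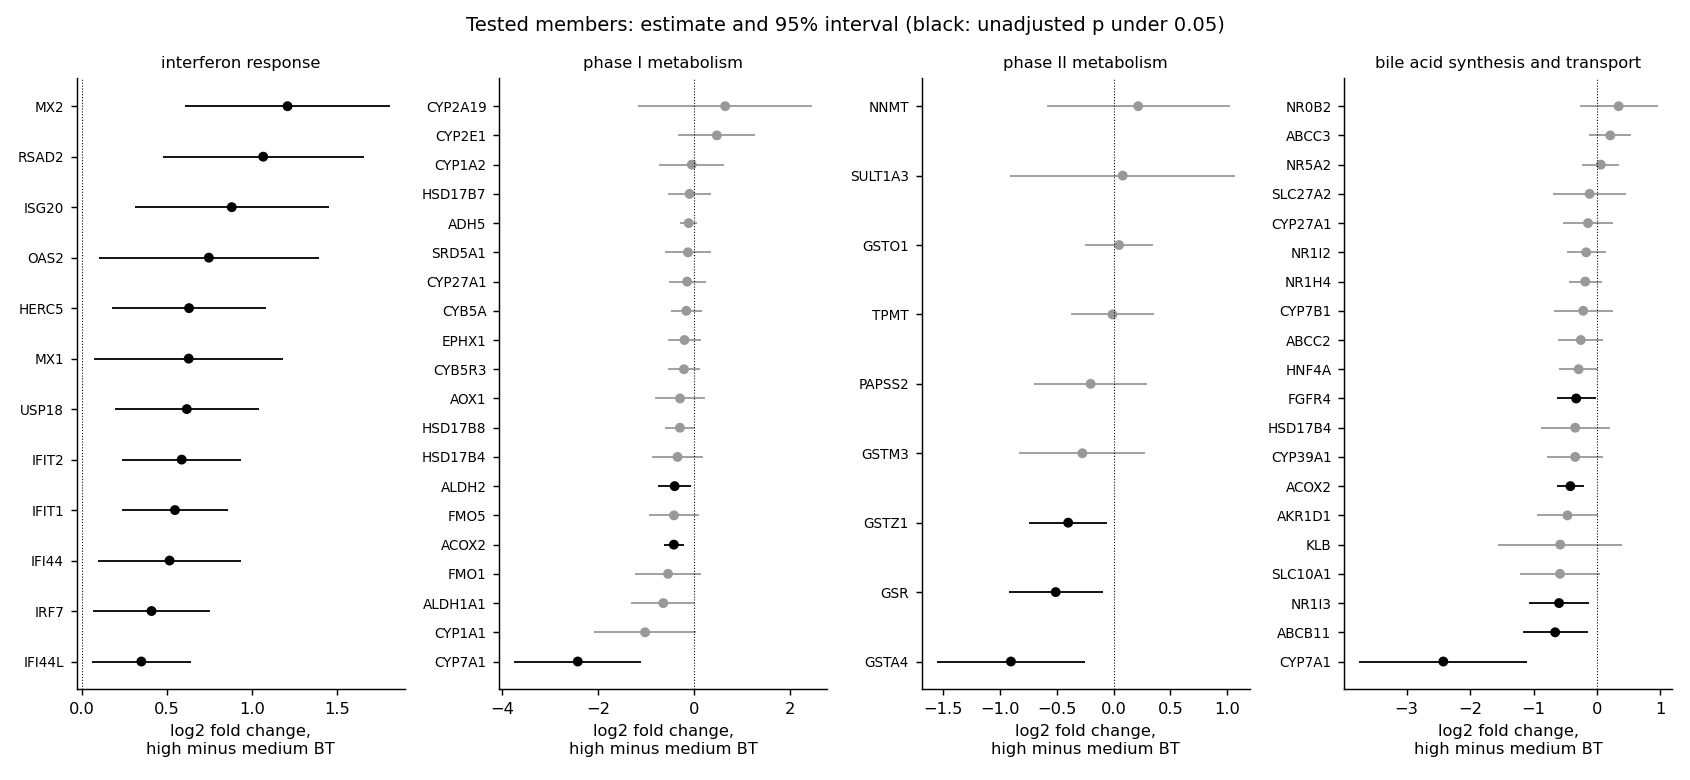
Log2 fold change of high minus medium BT (horizontal) with its 95% interval for tested members of 4 lists, with members of an unadjusted p under 0.05 in black. A few members are not shown. In the interferon list the 12 intervals shown lie above 0, and the interval of the 1 tested member not shown includes 0. In the other 3 lists every black interval lies below 0.

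Genes induced by interferon had higher values in high BT. Of 13 tested, all had higher values and 12 had an unadjusted p under 0.05 (92.3% of the list, beside 8.12% of all genes). The median log2 fold change was 0.62, and none was called, with adjusted p from 0.101. MX2, a dynamin-like antiviral GTPase, ran from 2.26 through 8.16 to 16.0 CPM in high BT and from 1.06 through 3.95 to 15.3 CPM in medium BT. Its log2 fold change was 1.21 ± 0.30, and 14 of 15 livers of high BT lay above the median of medium BT. RSAD2 (viperin) ran from 1.18 through 4.46 to 12.0 CPM against 0.968, 2.29 and 5.69 CPM, a log2 fold change of 1.06 ± 0.29. The tetratricopeptide genes IFIT1 and IFIT2, which bind viral RNA or slow translation, differed by 0.55 ± 0.15 and 0.59 ± 0.17. The exonuclease ISG20 (0.88 ± 0.28), the synthetase OAS2 (0.75 ± 0.32) and MX1 (0.63 ± 0.27) had larger log2 fold changes than the median of the list. USP18 and HERC5, which remove and attach the ubiquitin-like modifier ISG15, were at 0.62 ± 0.21 and 0.63 ± 0.22.

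The mean log2 CPM over the 13 interferon genes ran from 3.25 through 4.10 to 5.03 in high BT and from 2.57 through 3.61 to 4.66 in medium BT. In 13 of 15 livers of high BT it exceeded the median of medium BT, and the ranges overlapped over most of their length. Genes measured in the same livers are not independent observations. The count of 12 was 6 with edgeR, with DESeq2 or without sample quality weights, and 7 without medium replicate 11. On the scale of 46 livers, MX2 had a median of 8.38 CPM in high BT, 4.05 CPM in medium BT and 7.42 CPM in low BT, and RSAD2 had 4.56, 2.36 and 4.67 CPM. In testis of the same boars, 1 of 11 tested members had an unadjusted p under 0.05 with a higher value (beside 2.04% of all genes there) and none a lower value (beside 2.14%), and the median log2 fold change was 0.25.

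Of 23 tested genes of innate sensing and chemoattractant receptors, a list drawn up after the values had been seen, 7 had higher values at an unadjusted p under 0.05 (30.4%, beside 8.12% of all genes) and 1 had a lower value (4.35%, beside 5.92%), and none was called. The count of 7 was 4 with at least 10 counts in every library. CCR1, a chemokine receptor of monocytes and neutrophils, ran from 14.1 through 20.5 to 45.6 CPM in high BT and from 8.91 through 13.3 to 27.6 CPM in medium BT (0.71 ± 0.16, adjusted p of 0.0930). FCN2, a ficolin that binds microbial sugars, had medians of 191 and 98.9 CPM (1.00 ± 0.24). All 15 livers of high BT lay above the median of medium BT for both genes. The complement receptors C5AR2 (1.22 ± 0.30) and C3AR1 (0.65 ± 0.20) and the Toll-like receptors TLR4 (0.48 ± 0.12), TLR8 (0.59) and TLR9 (0.66) made up the rest. TLR2, TLR3, TLR5 and TLR7 had unadjusted p above 0.05. In bulk tissue, more cells of a type and more RNA per cell cannot be told apart.

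Markers of other cells were read beside these values. Of 3 tested markers of macrophages and Kupffer cells, CD68 had a higher value (0.43 ± 0.16, unadjusted limma p of 0.0106), whereas MARCO (-0.53 ± 0.29) and CD14 (-0.18 ± 0.14) had lower values with an unadjusted p above 0.05. The summed level of the 3 ran from 161 to 404 CPM in high BT and from 165 to 559 CPM in medium BT. None of the 4 tested markers of T and B cells, the 7 of hepatocytes, the 2 of cholangiocytes or the 1 of endothelium had an unadjusted p under 0.05. Of 2 erythroid markers, ALAS2, of haem synthesis in red cell precursors, had a lower value (-1.01 ± 0.33, unadjusted limma p of 0.00420) and HBB was at -0.73 ± 0.41. The part of these cells in the differences above was not tested.

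Reads of testis genes were found at a low level in the livers, and more of them in high BT. The summed level of PRM1, TNP1, DDX4 and CYP17A1, genes of spermatids, germ cells and Leydig cells, ran from 0.0984 through 1.50 to 28.2 CPM in high BT and from 0 through 0.232 to 2.16 CPM in medium BT. PRM1, the protamine of sperm chromatin, had 296 reads over the 15 livers of high BT, 159 of them in 1 liver, and 23 reads over the 16 livers of medium BT. It passed the minimum mean count only through high BT, so that no fold change is given and its call by edgeR is not read as a difference. The highest liver held 0.123% of the median level of PRM1 in testis, 0.146% for TNP1, 0.200% for DDX4 and 0.160% for CYP17A1. The fit without the 5 livers of high BT and 1 of medium BT whose sum exceeded 2 CPM before TMM scaling (4 and 1 after it) kept MEST and ENSSSCG00000022796 and lost CYBRD1 (0.79, adjusted limma p of 0.0939) and ITGA8 (0.81, adjusted limma p of 0.226). In that fit 9 of the 13 interferon genes had higher values at an unadjusted p under 0.05.

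Of 13 measures of the libraries, 3 had an adjusted p under 0.05 in permutation tests with 100000 resamples, two-sided. The genes detected averaged 15002 ± 297 (SD) in high BT and 14584 ± 508 in medium BT (adjusted permutation p = 0.0410). The median correlation of a library with its own group averaged 0.943 and 0.931 (adjusted permutation p = 0.0130). These correlations share libraries within a group and were not recomputed for the permuted groups, so that this p is not read as a test. The lowest, from 0.912 to 0.921, were those of medium replicates 2, 3, 4, 14 and 15. The second principal component, with 11.6% of the variance, also separated the groups in part (adjusted permutation p = 0.0217). The share of reads assigned to genes, at medians of 58.1% and 63.9%, had an adjusted permutation p of 0.359, and reads on genes one of 0.674. With the share of reads assigned as a covariate, 3 of the 4 calls remained and ITGA8 was lost (adjusted limma p of 0.138).

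**Figure D5:**
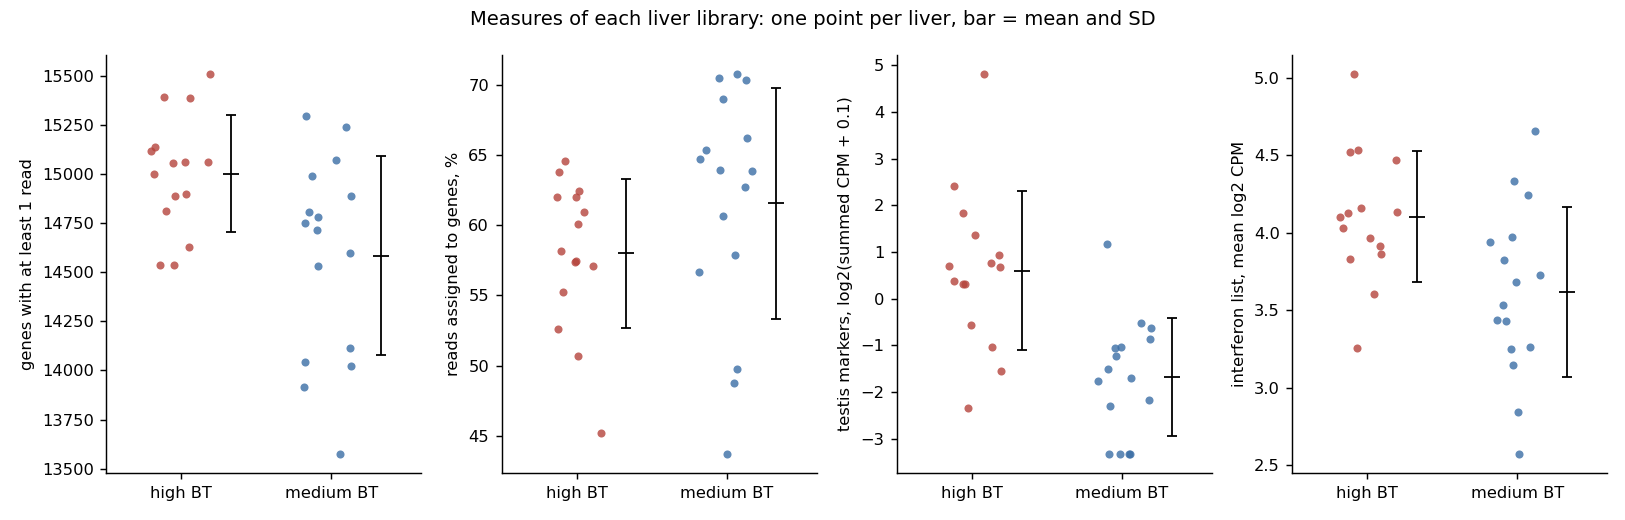
Genes detected, percentage of reads assigned to genes, summed testis markers as log2(CPM + 0.1) and mean log2 CPM of the 13 interferon genes (vertical axes) for each of the 15 livers of high BT and 16 of medium BT, with bars for mean and SD. The testis markers reach 28.2 CPM in high BT and 2.16 CPM in medium BT, and the ranges of the groups overlap in all 4 measures.

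None of the 12 ribosomal protein genes, the 17 of protein export, the 20 of cholesterol synthesis or the 14 of fasting and glucose metabolism tested had an unadjusted p under 0.05, and their median log2 fold changes were -0.05 (0.06 without scaling factors), -0.08, -0.15 and -0.17. For cholesterol synthesis 4 members had lower values at that level with DESeq2 and 3 without the second-run libraries, and for protein export 3 without the livers of quality weight under 0.6. The shares of all genes at that level, 8.12% with higher and 5.92% with lower values, stand beside each count that follows. Of 24 genes of oxidative phosphorylation, 2 had lower values at that level (8.33%, near the share of all genes), with a median of -0.05 (0.04 without scaling factors). All 8 acute phase genes tested had lower values, with 2 (HPX and CP) at an unadjusted p under 0.05 and a median of -0.29. Both are also counted in the list of iron genes. The count of 2 ran from 0 to 3 over the alternative settings and from 1 to 3 on leaving out 1 liver. Of 9 immediate early and stress genes all had higher values, with 3, the chaperone DNAJB1 (0.44 ± 0.15) and the early factors ATF3 (0.94 ± 0.38) and IER2 (0.51 ± 0.22), at an unadjusted p under 0.05. Of 9 circadian genes, the output factor DBP (-0.83 ± 0.29) and PER2 (-0.45 ± 0.21) had lower values and NPAS2 (0.86 ± 0.34) a higher value at that level. None of these genes was called, and the time of day of slaughter was not in the labels.

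On the scale of 46 livers, the median of low BT lay between those of the other groups for 9 of the 10 genes of lowest p. CYBRD1 had medians of 30.6 CPM in high, 17.2 in medium and 23.2 in low BT, and ITGA8 had 1.89, 1.20 and 1.48 CPM. ACSM4 had 839, 1294 and 919 CPM, and CYP7A1 had 5.57, 27.0 and 15.0 CPM. For CYBRD1, ITGA8, MEST, ACSM4 and CYP7A1 the medium group, which lies between the others in merit, was at one end of the 3 medians. The genes were chosen for their difference between high and medium BT in these livers, which by itself favours a median of low BT between the other 2. These medians have no test, and no order of the groups is read from them.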

How the data were processed

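Liver and testis RNA was sequenced by the authors, who trimmed reads with cutadapt 1.8.1 and Trimmomatic 0.33, mapped them with STAR to the Ensembl genome of Sus scrofa and obtained gene counts with HTSeq 0.6.0 (versions from the submitters' processing notes). The deposited values are raw read counts for 25322 genes, without normalisation. Rows for reads without a feature, ambiguous reads and unaligned reads were kept out of library sizes. Symbols matched 11804 identifiers. Merit group came from the sample titles.

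Genes with a mean count above 5 over the 31 livers were scaled by TMM and fitted with voom, sample quality weights and limma 3.58.1 (R 4.3.3), with no covariate. A gene was called when its p, adjusted by Benjamini-Hochberg, was under 0.05, and SEs and intervals are from this fit. CPM values use TMM library sizes. edgeR 4.0.16 (quasi-likelihood) and DESeq2 1.42.0 (Wald) were alternatives, with other scalings, minimum counts and sets of libraries. Library measures were compared by permutation tests with 100000 resamples, and the effects in liver and testis by exact permutation over boars. Fits were tested on simulated data.

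The genes named were the 5 of lowest p in each direction, as fewer were called, and called members of the lists. The genes given from lists as examples were chosen after their values were seen, as were the iron, integrin, imprinted, acyl-CoA synthetase, bile acid and innate lists and STEAP4, MORC3 and DRAM1. A member whose value prompted one of these lists adds nothing to the count of that list. The comparison and all lists were chosen with earlier results of these data known. The p-values measure spread between boars, some of which may be half-siblings. Counting error is larger in the shallower libraries. Some members of the lists are counted but not reported here by name.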

Additional observations from a re-analysis of the deposited data

Results flagged for a closer look

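For 4 of the 9 named genes tested in both tissues, the effect of merit differed between liver and testis of the same 20 boars (14 of high BT, 6 of medium BT) by an exact permutation test adjusted over the 9 genes. High minus medium BT in liver minus the same in testis was -1.59 on the log2 scale for MEST (adjusted exact permutation p = 0.00163), 0.88 for LONRF3 (0.0241), 1.10 for CNTFR (0.0327) and -0.66 for ENSSSCG00000021918 (0.0241). These genes were chosen for their difference in liver, in livers that include those of the 20 boars, so that the liver side of each test is not independent of the choice. Among the 6 testes of medium BT, no lowest or highest log2 level of a named gene, number of reads or correlation passed Dixon's test at the 95% level.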

How the results depend on the processing

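The number of genes called was 4. It was 13 without scaling factors, where the median log2 fold change of all genes shifted to 0.09, 2 with edgeR, 24 with DESeq2, 1 in the fit of 46 livers in 3 groups, 8 with the total RNA liver of high BT, 12 without the libraries of a second run, and 21 without the 4 livers of medium BT with quality weights under 0.6, a setting added after the data were seen. The split of higher against lower calls was 11 to 2 without scaling factors. Leaving out 1 liver gave between 2 and 38 calls. It moved the count by over 1.5 times for high replicates 4 (9), 5 (8), 6 (12) and 10 (18) and medium replicates 1 (22), 2 (12), 3 (8), 5 (17), 8 (2) and 16 (38). No named gene changed sign. MEST was called in all 12 alternatives in which it was tested and CYBRD1 in 9 of 13. ENSSSCG00000022796 was called in 9 of 12, with adjusted p of 0.236 with edgeR, 0.205 with DESeq2 and 0.0683 with 46 livers, and ITGA8 in 7 of 12. CYBRD1 and ITGA8 were both lost without sample quality weights, with 46 livers and with edgeR. The genes detected differed by 346 between the groups without the libraries of a second run (adjusted permutation p = 0.0980). No testis library had a median correlation under 0.8, so that leaving such libraries out changed nothing. None of the 4 genes was called in testis without quality weights either. No paired analysis was possible because the replicate numbers follow the order of the samples and pair no boars between groups. The cause of these changes was not tested.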
